A study of Mus musculus with 6 samples.

Results

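The enzymes that break down arginine and tryptophan were followed here as 10 genes, taken from the deposited gene table by symbol: Arg1, Arg2, Nos2, Ass1, Asl, Odc1, Ido1, Ido2, Tdo2 and Il4i1. All 10 were found among 33573 genes, and 8 of them passed the filter on low counts. The libraries came from colorectal tumors and from colon tissue of C57BL/6 mice, with 3 libraries of each tissue numbered 2, 4 and 20. Both tissues had been exposed to azoxymethane and dextran sodium sulfate (AOM/DSS), a mutagen followed by cycles of an inflammatory agent in the drinking water, so the colon samples are not from untreated animals. The study's methods describe male mice for this model, and the labels of these samples give the strain alone and no drug beyond AOM/DSS. The submitters describe the tumor and colon pieces as paired, and the labels call them tumor cell and normal colon cell, although RNA was taken from frozen tissue pieces and not from sorted cells.

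Arginine has several fates in the gut. Arginases (Arg1 in the cytosol, Arg2 in mitochondria) cut it to ornithine and urea, the inducible nitric oxide synthase Nos2 turns it into nitric oxide and citrulline, and Ass1 and Asl rebuild arginine from citrulline. Odc1 turns ornithine into putrescine, the first polyamine. Tryptophan enters the kynurenine pathway through Ido1, Ido2 or Tdo2, while Il4i1 is a secreted oxidase that converts aromatic amino acids to keto acids. Myeloid cells use arginase and Nos2 in inflammation, and loss of arginine or tryptophan from the surroundings is known to restrain T cells.

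The libraries held 16995481 to 20789620 counts in genes. Pan-epithelial markers (12 genes such as Epcam and Krt8) summed to 10484 to 11937 CPM (counts scaled to the library size) in tumors and 10784 to 12035 CPM in colon. These sums overlapped, and Krt8, Krt19 and Epcam made up the most of them, while 3 of the 12 genes were higher in tumors (Krt18 by log2 1.003, St14 by 0.73 and Lsr by 0.72). Smooth muscle markers summed to 505 to 1066 CPM in tumors and 8912 to 9260 CPM in colon, and enteric nerve markers to 16.0 to 61.6 CPM in tumors and 75.2 to 104 CPM in colon, with 8 of 8 and 7 of 8 genes lower in tumors. Neutrophil markers summed to 193 to 313 CPM in tumors and 13.5 to 76.0 CPM in colon, with 7 of 8 higher in tumors and Ly6g not past the threshold. Mast cell markers summed to 49.3 to 125 CPM in tumors and 2.03 to 5.94 CPM in colon, with 5 of 6 higher. Macrophage and monocyte markers summed to 517 to 569 CPM in tumors and 320 to 490 CPM in colon, with 4 of 12 higher and 1 lower. B and plasma cell markers summed to 250 to 733 CPM in tumors and 853 to 1375 CPM in colon, with 5 of 7 lower. The sums of fibroblast, endothelial and T and NK cell markers overlapped between the tissues. Dendritic cell markers summed to 38.4 to 62.5 CPM in tumors and 28.5 to 31.4 CPM in colon, with 2 of 8 higher. The median of the dendritic list was log2 -0.38, and Itgax was its most abundant marker. Mmp8 and Ms4a2 were at 0 counts in every colon library.

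Of the 8 genes tested, Arg1 and Asl were higher in tumors, none was lower, and 6 did not pass the threshold (adjusted p of 0.05, edgeR quasi-likelihood test, Benjamini-Hochberg over 18520 genes). In the same fit 16.1% of all genes were higher and 16.1% were lower. At an unadjusted p below 0.05 the genes were Arg1, Arg2, Nos2 and Asl, all higher in tumors, and the count of lower genes was 0 there, 0 by DESeq2 and 0 by limma-voom. The CPM ranges of tumor and colon did not overlap for Arg1, Arg2 and Asl, with tumors above, and for none with tumors below, against 25.3% of all genes with tumors above and 24.2% with tumors below. The median log2 fold change, tumor over colon, was 0.82 over the 8 genes and 0.01 over all genes tested.

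**Figure D1:**
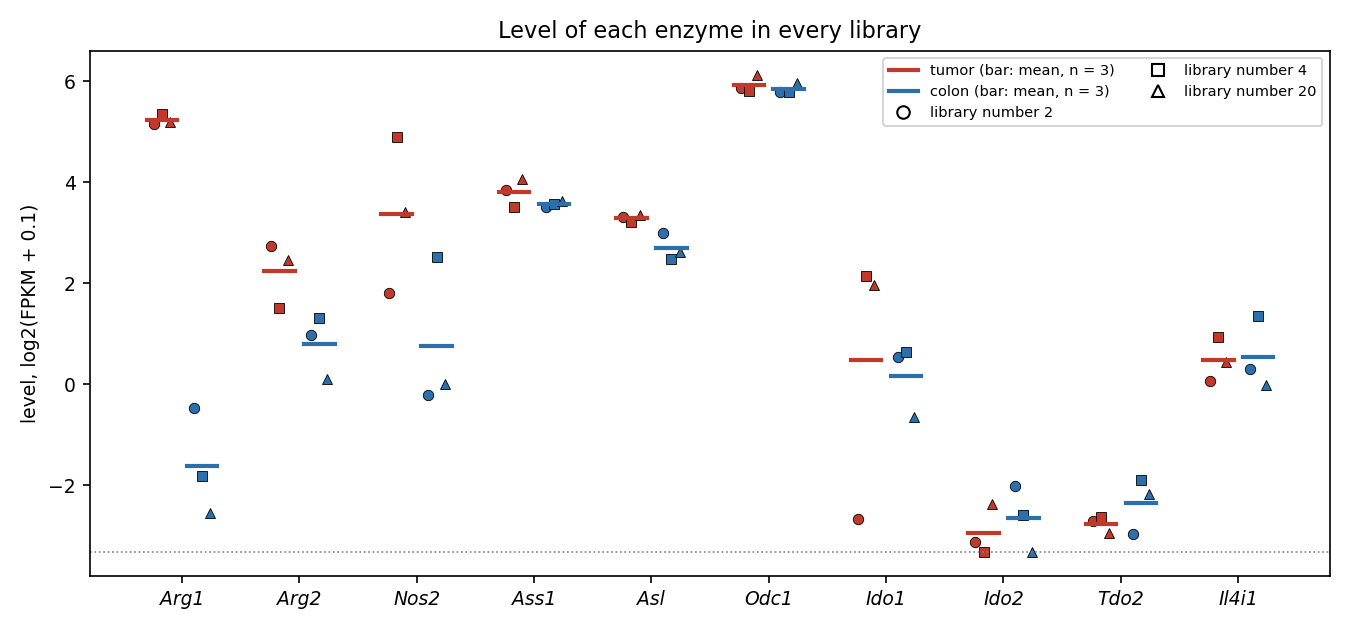
Level of each of the 10 enzymes in every library on the log2(FPKM + 0.1) scale, red for tumor and blue for colon, with symbols for the library number and bars for the mean of 3. The dotted line is a value of 0 FPKM. Arg1 lay at 35.7 to 40.8 FPKM in tumors and at 0.0695 to 0.621 FPKM in colon, whereas Odc1 lay near the top in both tissues.

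Arg1 showed the largest difference of the 10 genes. It is ENSMUSG00000019987, on the minus strand of chromosome 10 from 24791119 to 24803382 (GRCm39, the build in the submitters' notes), and no other gene of the table overlapped it. Its levels were 75.4, 86.8 and 79.6 CPM in tumors 2, 4 and 20, against 1.42, 0.430 and 0.165 CPM in colon 2, 4 and 20. The tumors were close to each other, the colon libraries were spread over the lowest levels, and the groups were far apart. In raw counts these were 1544, 1892 and 1438 in tumors, against 26, 7 and 3 in colon. The mean was 80.6 ± 5.72 CPM in tumors and 0.671 ± 0.66 CPM in colon (SD, n = 3 each), a log2 fold change of 6.88 ± 0.52 (SE) or 118-fold, with an edgeR adjusted p = 0.000315. The colon mean rests on few counts, and the log2 fold change lay between 4.92 and 8.08 over 17 alternative settings, with an adjusted p of at most 0.00357. The marker sums of neutrophils, mast cells, macrophages and monocytes, and dendritic cells were also higher in all 3 tumors, as given above. Of the macrophage and monocyte markers 4 of 12 were higher and 1 was lower, and of the dendritic cell markers 2 of 8 were higher. The dendritic list had a median log2 fold change of -0.38. Itgax, its most abundant marker, was at 34.6 CPM in tumors and 13.4 CPM in colon. Flt3, Zbtb46 and Cd209a were lower in every tumor than in every colon library, without passing the threshold. The part of these cell types in the Arg1 difference was not tested. In whole tissue, a change in the number of cells of a type and a change in the RNA per cell cannot be told apart.

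Arg2, the mitochondrial arginase (ENSMUSG00000021125, chromosome 12 from 79177551 to 79203075, plus strand), had 8.89, 3.71 and 7.59 CPM in tumors 2, 4 and 20, against 2.73, 3.56 and 1.48 CPM in colon 2, 4 and 20. Every tumor lay above every colon library, but tumor 4 was only just above colon 4. The mean was 6.73 ± 2.69 CPM in tumors and 2.59 ± 1.05 CPM in colon (SD, n = 3 each), a log2 fold change of 1.38 ± 0.44 (SE), and the edgeR adjusted p = 0.0505 missed the threshold. It passed in 6 of the 17 alternatives, among them DESeq2 at 0.0113 and the fit without tumor 4 at 0.0210, and the range over all of them was 0.0113 to 0.134. Arg2 overlaps Vti1b on the opposite strand, which held 3455 counts in tumors and 3320 counts in colon over the 3 libraries of each. The library kit marks strand, but whether counting used it is not given in the sources used here, so reads of the pair may be mixed.

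FPKM, a fragment count divided by gene length and library size, corrects for the length of a gene and so allows the 2 arginases to be set side by side. Arg1 made up 84.5, 93.7 and 87.1% of the summed Arg1 and Arg2 FPKM in tumors 2, 4 and 20, against 25.0, 7.18 and 6.65% in colon 2, 4 and 20. Arg1 was thus the more abundant arginase transcript in every tumor and the less abundant one in every colon library. The difference Arg1 minus Arg2 on the log2(FPKM + 0.1) scale averaged 3.003 ± 0.75 in tumors and -2.41 ± 0.87 in colon (SD, n = 3 each). The exact two-sided permutation test gave p = 0.1, the smallest that 3 against 3 libraries allow, and 0.2 after Benjamini-Hochberg adjustment over 4 such balances.

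**Figure D2:**
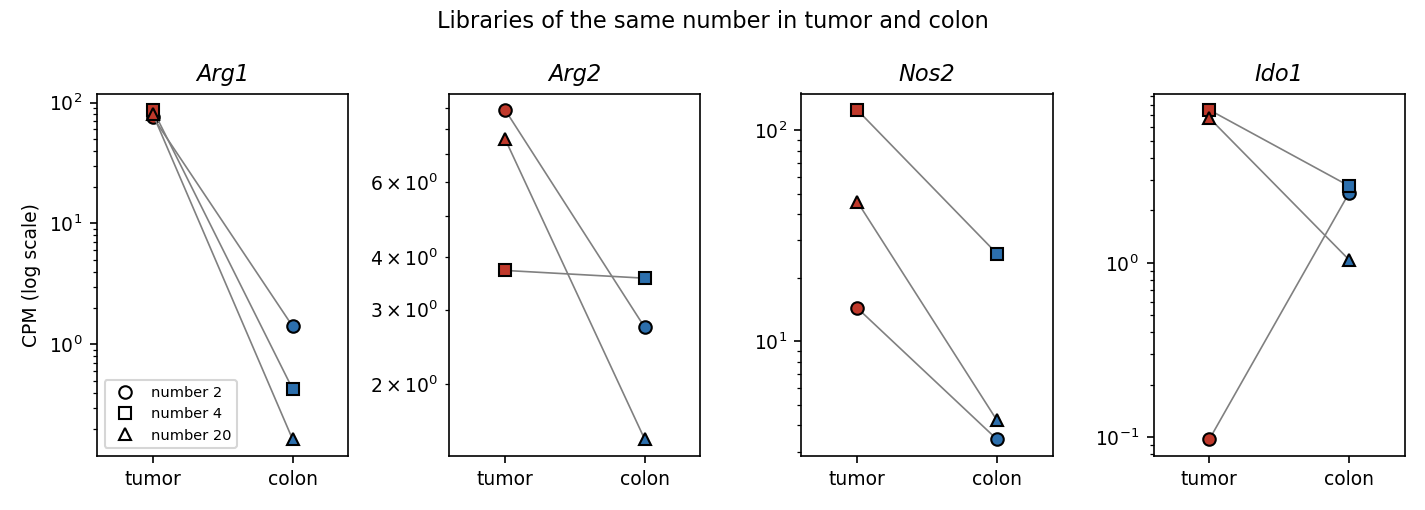
CPM on a log axis of Arg1, Arg2, Nos2 and Ido1 in tumor (left, red) and colon (right, blue), with lines joining the libraries that carry the same number. Arg1 and Nos2 were higher in the tumor of every number, Arg2 differed little for number 4, and Ido1 was lower in tumor 2, with 0.0977 CPM, than in any other library.

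Nos2, the inducible nitric oxide synthase (ENSMUSG00000020826, chromosome 11 from 78811613 to 78851080, plus strand), varied widely within each tissue. Its levels were 14.4, 125 and 45.8 CPM in tumors 2, 4 and 20, against 3.43, 26.0 and 4.23 CPM in colon 2, 4 and 20. The groups overlapped, because colon 4 lay above tumor 2, and number 4 was the highest in both tissues. The mean was 61.6 ± 56.8 CPM in tumors and 11.2 ± 12.8 CPM in colon (SD, n = 3 each), a log2 fold change of 2.46 ± 0.99 (SE) with an edgeR adjusted p = 0.0997. Compared within a number, the tumor was higher in 3 of 3, by log2 2.03, 2.25 and 3.405 for numbers 2, 4 and 20. With the number as a block, Nos2 passed the threshold, with a log2 fold change of 2.58 and an edgeR adjusted p = 0.00605. Without colon 4 it passed as well, at 4.005 and 0.0373, and without tumor 4 the values were 1.43 and 0.281.

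The balance Arg1 minus Nos2 on the log2(FPKM + 0.1) scale was 3.35, 0.47 and 1.78 in tumors 2, 4 and 20, against -0.25, -4.33 and -2.55 in colon 2, 4 and 20. Arg1 was above Nos2 in every tumor and below it in every colon library. The exact permutation p was 0.1, and 0.2 adjusted over the 4 balances.

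Calls among the other enzymes of nitric oxide supply were no more frequent than over all genes. Among 8 genes for nitric oxide synthases and their cofactor tetrahydrobiopterin, all tested, 1 was higher, 1 was lower and the median log2 fold change was -0.23. Each direction was 12.5% of the list, against 16.1% of all genes tested. Gch1, which starts cofactor synthesis, was higher, at 54.5 ± 4.13 CPM in tumors and 28.2 ± 8.98 CPM in colon (log2 fold change 0.95, edgeR adjusted p = 0.0212), a call lost without tumor 20 (0.0690) or colon 4 (0.0554). Nos1, the neuronal synthase, was lower, at 0.733, 1.88 and 1.27 CPM in tumors 2, 4 and 20, against 19.1, 16.9 and 28.6 CPM in colon 2, 4 and 20 (log2 -4.04, adjusted p = 0.000673). Enteric nerve and smooth muscle markers were lower in the same libraries, and their part in the Nos1 difference was not tested. Nos3, the remaining synthase, was at 12.5 ± 4.18 CPM in tumors and 7.38 ± 1.92 CPM in colon. It was not past the threshold (log2 0.76, edgeR adjusted p = 0.111) and was named after its values were seen. Qdpr and Spr, the most abundant of the list per length, were not past the threshold, at log2 -0.45 and -0.24. With the block, 1 of the 8 was higher and 2 were lower, and 2 were higher without tumor 4.

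Ass1, which joins citrulline and aspartate (ENSMUSG00000076441, chromosome 2 from 31360219 to 31410684, plus strand), had 32.5, 25.9 and 39.0 CPM in tumors 2, 4 and 20, against 27.7, 29.4 and 31.7 CPM in colon 2, 4 and 20. The groups overlapped, with tumor 4 the lowest of the 6 libraries and tumor 20 the highest. The log2 fold change was 0.13 ± 0.17 (SE) with an edgeR adjusted p = 0.583, and it was -0.02 without tumor 20. Asl, which splits the product of Ass1 into arginine and fumarate (ENSMUSG00000025533, chromosome 5 from 130040099 to 130058088, minus strand), had 44.9, 42.5 and 47.5 CPM in tumors 2, 4 and 20, against 38.9, 27.7 and 31.1 CPM in colon 2, 4 and 20. Every tumor was above every colon library. The mean was 44.9 ± 2.50 CPM in tumors and 32.6 ± 5.75 CPM in colon (SD, n = 3 each), a 1.38-fold difference or log2 0.46 ± 0.15 (SE). Its edgeR adjusted p = 0.0499 lay at the threshold and held in 7 of 17 alternatives. It was lost with the block (0.0523), with RLE scaling (0.0515), with upper quartile scaling (0.0610) and when any single library other than colon 2 was left out (0.0692 to 0.141). The balance Ass1 minus Asl was 0.51 ± 0.21 in tumors and 0.87 ± 0.31 in colon on the log2(FPKM + 0.1) scale, with an exact permutation p = 0.3.

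Of 8 further genes of the urea cycle and of citrulline supply, 6 were tested, 1 was higher, 1 was lower and the median was -0.56. Each direction was 16.7% of the tested genes, near the 16.1% of all genes. Ddah2, which frees citrulline from methylated arginine, was higher, at 66.4, 33.4 and 41.1 CPM in tumors 2, 4 and 20, against 6.76, 12.3 and 11.1 CPM in colon 2, 4 and 20 (log2 fold change 2.22, edgeR adjusted p = 0.00319). Its relative Ddah1 was at 45.6 ± 20.2 CPM in tumors and 69.6 ± 25.9 CPM in colon and was not past the threshold (adjusted p = 0.280). Otc, which makes citrulline from ornithine, was lower, with 0, 34 and 4 counts in tumors 2, 4 and 20, against 65, 192 and 378 counts in colon 2, 4 and 20 (log2 -4.29, adjusted p = 0.0266). The Otc call was lost without tumor 20 (0.0878), colon 4 (0.0693) or colon 20 (0.0790), and with the block 3 genes of the list were lower instead of 1.

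Transporters that carry arginine across the plasma membrane were tested as 8 genes, of which 3 were higher and 0 were lower, with a median of 0.37. These shares were 37.5% and 0%, against 16.1% and 16.1% of all genes. The count of lower genes was 1 at an unadjusted p below 0.05, 1 by DESeq2, 0 by limma-voom and 1 with the block. Slc7a2, a cationic amino acid transporter of myeloid and other cells, had 17.1, 11.97 and 8.42 CPM in tumors 2, 4 and 20, against 5.56, 3.25 and 3.68 CPM in colon 2, 4 and 20 (log2 fold change 1.58, edgeR adjusted p = 0.0121). Its groups did not overlap, and its call held in all 17 alternatives. Slc7a6 was higher by log2 0.89 (adjusted p = 0.0191) and Slc3a2, the heavy chain that many amino acid transporters share, by log2 0.58 (adjusted p = 0.0201). The Slc7a6 call was lost without colon 2 (0.0573) or colon 4 (0.0687). The Slc3a2 call was lost without tumor 20 (0.0715), colon 4 (0.0698) or colon 20 (0.0627). Slc7a7, the most abundant of the list per length beside Slc3a2, was at 46.5 ± 9.43 CPM in tumors and 41.2 ± 6.91 CPM in colon, with an adjusted p = 0.522.

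Odc1, the entry into polyamine synthesis (ENSMUSG00000011179, chromosome 12 from 17594795 to 17601506, plus strand), was the most abundant of the 10 genes per length in both tissues. Its levels were 188, 181 and 233 CPM in tumors 2, 4 and 20, against 191, 195 and 226 CPM in colon 2, 4 and 20. The groups overlapped, and number 20 was the highest in both tissues. The mean was 201 ± 28.4 CPM in tumors and 204 ± 18.9 CPM in colon (SD, n = 3 each), a log2 fold change of -0.02 ± 0.13 (SE) with an edgeR adjusted p = 0.907. The sign was not fixed, and limma on log2(FPKM + 1), a scale on which the median of all genes was 0.09, gave 0.09. Myc, whose protein is known to act on Odc1, was higher in tumors (log2 1.404, adjusted p = 0.00446).

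Promoters of 4 of the 10 genes, Ass1, Odc1, Tdo2 and Il4i1, were matched in the RefSeq set for build GRCm38.p6, which differs from the build of the gene positions above. Those of Odc1 and Ass1, the most abundant of these 4 per length, are shown. Myc with its partner Max is known to bind the E-box letters CACGTG. Each line runs from 250 bases before the start of the gene to 50 bases after it, on the gene's strand (the plus strand for both), and capitals mark CACGTG and the GC box GGGCGG on either strand.
Odc1, chr12:17544623-17544922: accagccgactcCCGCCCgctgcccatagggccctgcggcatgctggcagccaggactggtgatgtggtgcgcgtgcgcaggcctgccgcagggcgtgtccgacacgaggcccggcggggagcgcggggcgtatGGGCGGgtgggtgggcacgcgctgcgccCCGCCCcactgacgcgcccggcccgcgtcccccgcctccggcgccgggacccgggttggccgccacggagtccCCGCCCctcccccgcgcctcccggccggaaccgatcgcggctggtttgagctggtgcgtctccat
Ass1, chr2:31470020-31470319: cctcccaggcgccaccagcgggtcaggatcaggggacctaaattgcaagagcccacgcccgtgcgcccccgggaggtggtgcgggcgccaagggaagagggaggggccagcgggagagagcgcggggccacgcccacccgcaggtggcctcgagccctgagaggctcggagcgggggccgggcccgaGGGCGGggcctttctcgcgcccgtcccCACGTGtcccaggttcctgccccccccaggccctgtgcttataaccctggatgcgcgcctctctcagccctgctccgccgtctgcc
The Odc1 window held 4 GC boxes, beginning 238, 116, 88 and 15 bases before the start, and no CACGTG. The Ass1 window held 1 GC box, 63 bases before the start, and 1 CACGTG, 36 bases before it. Over 32851 promoters of the same length, 7.15% held CACGTG and 35.7% held the GC box, and the motifs share no position. A match describes letters in this window and not a bound site, and letters beyond the window were not searched.

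Genes of polyamine synthesis, breakdown and control changed in both directions around a flat Odc1. Of 20 genes listed, 19 were tested, 5 were higher, 4 were lower and the median was 0.15. The shares were 26.3% higher and 21.1% lower, against 16.1% and 16.1% of all genes. Smox, the spermine oxidase, had 268, 125 and 170 CPM in tumors 2, 4 and 20, against 43.5, 32.3 and 35.2 CPM in colon 2, 4 and 20 (log2 fold change 2.34, edgeR adjusted p = 0.00162). Every tumor was above every colon library by a wide margin. Mtap, which recovers methionine from the by-product of polyamine synthesis, averaged 54.4 ± 23.0 CPM in tumors and 14.7 ± 1.73 CPM in colon (log2 1.89, adjusted p = 0.00416). Atp13a2, a lysosomal polyamine exporter, was higher by log2 0.68 (adjusted p = 0.0144), and these 3 calls held in all 17 alternatives.

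Smaller differences of the polyamine list were less stable. Eif5a, the translation factor that carries the spermidine-derived residue hypusine, averaged 484 ± 23.9 CPM in tumors and 367 ± 20.2 CPM in colon (log2 fold change 0.40, edgeR adjusted p = 0.0199), and lost its call without tumor 20 (0.0789), colon 2 (0.0511) or colon 4 (0.0708). Paox, which oxidizes acetylated polyamines, was lower (log2 -0.78, adjusted p = 0.0139), except without tumor 20 (0.0524) or colon 4 (0.0613). Azin2, an activator of Odc1 protein, was lower (log2 -0.90, adjusted p = 0.0328), and lost its call without any 1 library other than tumor 4 (0.0643 to 0.111). Oaz1, the antizyme that marks Odc1 for degradation and is among the most abundant of the list, was not past the threshold (log2 -0.20, adjusted p = 0.245). With the block 4 genes of the list were higher and 2 were lower, and with a single library left out 3 to 5 were higher and 0 to 2 were lower.

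Agmat, an enzyme of a side route from arginine to putrescine, had 7, 70 and 14 counts in tumors 2, 4 and 20 and 0 counts in all 3 colon libraries, was too low for the test, and was picked after its values were seen. Ornithine can also leave for proline. Of that branch and of creatine synthesis 8 genes were tested, of which 2 were higher and 1 was lower, with a median of -0.15. These shares were 25% and 12.5%, against 16.1% and 16.1% of all genes. Pycr1, the last step of proline synthesis, had 66.8, 114 and 64.7 CPM in tumors 2, 4 and 20, against 6.98, 14.4 and 18.4 CPM in colon 2, 4 and 20 (log2 fold change 2.63, edgeR adjusted p = 0.00323). Prodh, which begins proline breakdown, was higher as well, by log2 1.18 (adjusted p = 0.00358). Both calls held in all 17 alternatives, so genes of both directions of proline metabolism were higher in tumors. Oat, which links ornithine with proline and glutamate, was lower, at 119 ± 24.4 CPM in tumors and 183 ± 7.01 CPM in colon (log2 -0.62, adjusted p = 0.0241). Its call was lost without tumor 20 (0.0507), colon 2 (0.0561), colon 4 (0.0615) or colon 20 (0.0597). Slc6a8, the creatine transporter, was not past the threshold (log2 -0.67, adjusted p = 0.131).

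**Figure D3:**
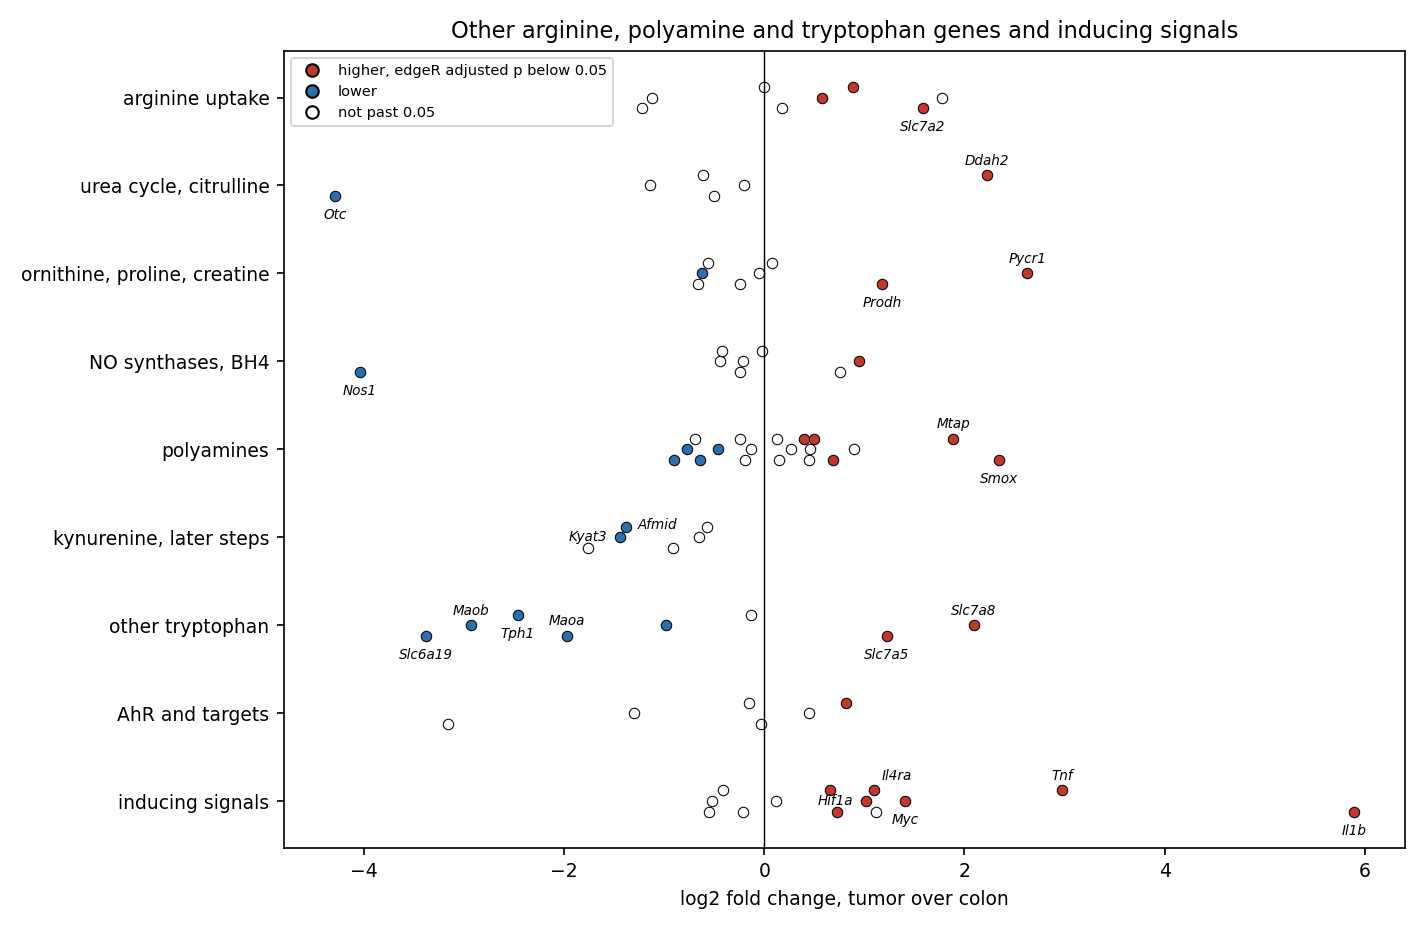
Log2 fold change, tumor over colon, of the 82 tested genes of the other lists, with 1 point a gene and 1 band a list, red for higher, blue for lower and white for not past an edgeR adjusted p of 0.05. Called genes beyond 1 on the log2 scale are named. Ddah2, Pycr1, Smox and Il1b lie to the right, and Otc, Nos1, Slc6a19, Maob, Tph1 and Maoa to the left.

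Ido1, the inducible enzyme of the kynurenine pathway (ENSMUSG00000031551, chromosome 8 from 25074152 to 25087025, minus strand), differed between the tumors themselves. It had 0.0977, 7.52 and 6.76 CPM in tumors 2, 4 and 20, against 2.51, 2.76 and 1.04 CPM in colon 2, 4 and 20, or 2, 164 and 122 counts against 46, 45 and 19 counts. Tumor 2 was the lowest of all 6 libraries, while tumors 4 and 20 were above every colon library. The mean was 4.79 ± 4.08 CPM in tumors and 2.10 ± 0.928 CPM in colon (SD, n = 3 each), and the log2 fold change of 1.19 ± 1.06 (SE) was not past the threshold (edgeR adjusted p = 0.429). Without tumor 2 it was 1.77 with an adjusted p = 0.0302, which is a value of 2 tumors, and limma-voom gave -0.10. Within numbers 2, 4 and 20 the log2 differences were -3.68, 1.41 and 2.58.

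Ifng, the cytokine best known to induce Ido1, had 0 counts in the tumors and 1 count in colon 4, and was named after its values were seen.

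Ido2 and Tdo2, the other enzymes that open the pathway, were near the detection limit and were not tested. Ido2 (ENSMUSG00000031549, chromosome 8 from 25021908 to 25066349) had 1, 0 and 6 counts in tumors 2, 4 and 20, against 10, 4 and 0 counts in colon 2, 4 and 20. The ratio of depth-scaled sums was 0.476, with an exact 95% interval of 0.163 to 1.26. Tdo2 (ENSMUSG00000028011, chromosome 3 from 81864397 to 81883509) had 4, 5 and 2 counts in tumors 2, 4 and 20, against 2, 11 and 9 counts in colon 2, 4 and 20, with a ratio of 0.476 and an interval of 0.209 to 1.03. The intervals cover counting error alone, and both include 1, so a difference was not detectable at this depth.

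Il4i1, the secreted amino acid oxidase (ENSMUSG00000074141, chromosome 7 from 44465811 to 44490233, plus strand), had 3.66, 7.02 and 4.98 CPM in tumors 2, 4 and 20, against 4.74, 10.4 and 3.84 CPM in colon 2, 4 and 20. The groups overlapped, and number 4 was the highest in both tissues, as for Nos2. The mean was 5.22 ± 1.69 CPM in tumors and 6.34 ± 3.58 CPM in colon (SD, n = 3 each), with a log2 fold change of -0.28 ± 0.44 (SE) and an edgeR adjusted p = 0.663. Without colon 4 the log2 fold change was 0.28. Il4i1 overlaps Nup62 on the same strand, which held 3544 counts in tumors and 2979 counts in colon, and Tbc1d17 and Atf5 on the opposite strand, so its reads may be split with theirs. The balance Ido1 minus Il4i1 averaged 0.00 ± 2.38 in tumors and -0.37 ± 0.52 in colon on the log2(FPKM + 0.1) scale, with an exact permutation p = 0.9.

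**Figure D4:**
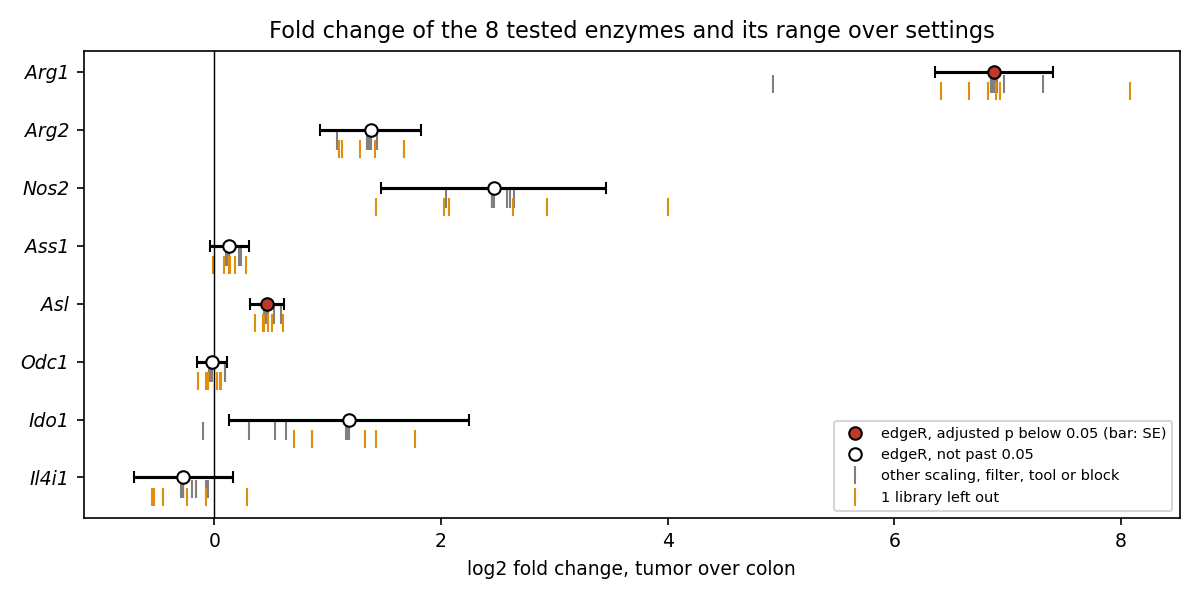
Log2 fold change, tumor over colon, of the 8 tested enzymes (point, with the SE as a bar, filled where the edgeR adjusted p was below 0.05). Grey ticks are other scalings, filters, tools or the block, and orange ticks are fits with 1 library left out. Every tick of Arg1, Arg2, Nos2 and Asl lies above 0, whereas those of Ass1, Odc1, Ido1 and Il4i1 fall on both sides.

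The order of the levels per length differed between the tissues mainly by the place of Arg1. In tumors the mean FPKM was 61.3 ± 7.61 for Odc1, 37.7 ± 2.77 for Arg1, 14.5 ± 13.5 for Nos2, 14.0 ± 2.63 for Ass1, 9.68 ± 0.417 for Asl, 4.91 ± 1.97 for Arg2, 2.72 ± 2.32 for Ido1 and 1.33 ± 0.435 for Il4i1 (SD, n = 3). Odc1 and Arg1 were separate from their neighbours over the tumors, while Nos2 overlapped with Ass1, Asl, Arg2 and Ido1, and Ido1 also with Arg2 and Il4i1. In colon the mean FPKM was 57.3 ± 4.29 for Odc1, 11.7 ± 0.562 for Ass1, 6.47 ± 1.24 for Asl, 2.42 ± 2.77 for Nos2, 1.74 ± 0.715 for Arg2, 1.49 ± 0.842 for Il4i1, 1.11 ± 0.499 for Ido1 and 0.292 ± 0.291 for Arg1 (SD, n = 3). Odc1 and Ass1 were separate there, and from Asl down each gene overlapped with the next. Tdo2 and Ido2 were the lowest in both tissues, at means of 0.0481 and 0.0358 FPKM in tumors and 0.105 and 0.0703 FPKM in colon.

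For the steps of the kynurenine pathway after the first, 2 of 6 tested genes (33.3%) were lower in tumors, against 16.1% of all genes. Of 9 genes listed, 8 were in the table and 6 were tested, with 0 higher, 2 lower and a median of -1.15, and the count of higher genes was 0 at an unadjusted p below 0.05, 0 by DESeq2 and 0 by limma-voom. Afmid, which makes kynurenine from the first product, averaged 2.10 ± 0.451 CPM in tumors and 5.52 ± 0.767 CPM in colon (log2 fold change -1.39, edgeR adjusted p = 0.00955), a call that held in all 17 alternatives. Kyat3, a kynurenine aminotransferase, was lower by the same test (log2 -1.44, adjusted p = 0.0473), and lost its call without any 1 library other than colon 2 (0.0593 to 0.137). Kyat1, the most abundant of the list per length, was at 23.0 ± 3.52 CPM in tumors and 36.3 ± 18.3 CPM in colon and was not past the threshold (log2 -0.66, adjusted p = 0.188). With the block, 3 were lower.

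Other routes and carriers of tryptophan showed the most calls for their number among the 9 lists. Of 8 tested genes, 2 were higher and 5 were lower, with a median of -1.48, and 4 were lower with the block. The main shares were 25% and 62.5%, against 16.1% and 16.1% of all genes. Tph1, which starts serotonin synthesis in enterochromaffin cells, had 5.86, 2.71 and 6.31 CPM in tumors 2, 4 and 20, against 31.2, 26.2 and 24.6 CPM in colon 2, 4 and 20 (log2 fold change -2.46, edgeR adjusted p = 0.00214). The monoamine oxidases that break serotonin down were lower too, Maoa at 117 ± 27.3 CPM in tumors and 460 ± 141 CPM in colon (log2 -1.97, adjusted p = 0.00259), and Maob at 3.68 ± 0.798 CPM in tumors and 28.0 ± 10.7 CPM in colon (log2 -2.93, adjusted p = 0.00148). Smooth muscle and nerve markers were lower in the same libraries, and their part in the differences of Maoa, Maob and Tph1 was not tested. Markers of enterochromaffin cells were not among the marker lists, and the part of these cells in the Tph1 difference was not tested. The carriers did not all move the same way. Slc6a19, an apical neutral amino acid carrier of enterocytes, was lower (log2 -3.38, adjusted p = 0.0140) but low in both tissues. It had 0, 5 and 5 counts in tumors 2, 4 and 20, against 27, 29 and 39 counts in colon 2, 4 and 20. Its log2 value lay between -3.87 and -0.38 over the 17 alternatives. Slc7a5, which exchanges large neutral amino acids such as tryptophan, averaged 52.7 ± 3.23 CPM in tumors and 22.6 ± 2.15 CPM in colon (log2 1.22, adjusted p = 0.000730). Slc7a8, its relative, averaged 66.4 ± 14.9 CPM in tumors and 15.6 ± 4.13 CPM in colon (log2 2.09, adjusted p = 0.00136). Wars, the tryptophan tRNA synthetase, was not past the threshold (log2 -0.13, adjusted p = 0.583).

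The aryl hydrocarbon receptor senses kynurenine and other tryptophan products. Of 6 tested genes of the receptor and its targets, 1 was higher (16.7%), 0 were lower and the median was -0.09. Over all genes 16.1% were higher and 16.1% were lower. The count of lower genes in the list was 1 at an unadjusted p below 0.05, 1 by DESeq2, 0 by limma-voom and 2 with the block. Ahr, the receptor, averaged 54.4 ± 11.5 CPM in tumors and 30.9 ± 0.563 CPM in colon (log2 fold change 0.82, edgeR adjusted p = 0.00915). Its partner Arnt was at log2 -0.03, and its target Nqo1 was at log2 -1.30 with an adjusted p = 0.143. Ahrr, the receptor's repressor and itself a target, was the lower gene at an unadjusted p below 0.05, with 1, 16 and 4 counts in tumors 2, 4 and 20, against 9, 65 and 88 counts in colon 2, 4 and 20. Its groups overlapped, because tumor 4 lay above colon 2, and its log2 value of -3.16 had an adjusted p = 0.0513. Tiparp, another target, was at log2 -0.15 with an adjusted p = 0.456, and Ahrr and Tiparp were named after their values were seen.

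Signals known to induce these enzymes were listed as 18 genes, of which 13 were tested, 7 were higher and 0 were lower, with a median of 0.73. These shares were 53.8% and 0%, against 16.1% and 16.1% of all genes. The count of lower genes was 2 at an unadjusted p below 0.05, 1 by DESeq2, 0 by limma-voom and 1 with the block. Il1b, an inflammatory cytokine that can induce Nos2, had 141, 38.5 and 173 CPM in tumors 2, 4 and 20, against 2.62, 2.33 and 0.989 CPM in colon 2, 4 and 20 (log2 fold change 5.89, edgeR adjusted p = 0.00127). Tumor 4, the highest library for Nos2, was the lowest tumor for Il1b, and a relation between Il1b and Nos2 was not tested. Tnf averaged 15.6 ± 2.24 CPM in tumors and 1.99 ± 1.10 CPM in colon (log2 2.97, adjusted p = 0.00282). Il4ra, the receptor of the cytokines that induce Arg1, was higher by log2 1.09 (adjusted p = 0.00120), and Hif1a by log2 1.02 (adjusted p = 0.00297). Il4 itself had 47 counts over the tumors and 48 over the colon libraries (log2 -0.21, edgeR adjusted p = 0.697). Il13 had 12 and 3 counts and was not tested. Stat6 was not past the threshold (log2 0.12, adjusted p = 0.445). Stat3 was higher (log2 0.73, edgeR adjusted p = 0.0307), a call lost without tumor 2, tumor 20, colon 4 or colon 20. Not past the threshold were Cebpb (log2 1.12, adjusted p = 0.0718), with every tumor above every colon library, and Irf1 (log2 -0.52, adjusted p = 0.0560), with every tumor below. Il6 had 202 counts over the tumors and 2 over colon, Csf2 had 39 and 3, and neither was tested. Il4, Il13, Stat6, Stat3, Cebpb, Irf1, Il6 and Csf2 were named after their values were seen. Of the interferon gamma receptor, Ifngr2 was higher by log2 0.66 (adjusted p = 0.0107), while Ifngr1 was not past the threshold (log2 -0.55, adjusted p = 0.107). The calls of Il1b, Tnf, Il4ra, Hif1a, Myc and Ifngr2 held in all 17 alternatives.

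Over the 9 lists, 82 of 94 genes in the table were tested. Of these 26.8% were higher and 17.1% were lower, against 16.1% and 16.1% of all genes tested. The lists were chosen with earlier results of these data known, so these shares are a description and not a test. The list of inducing signals held 7 of the 22 higher genes and 0 of the 14 lower genes. The median over the list genes was -0.14. Of the 36 genes called, 22 held their call in all 17 alternatives.

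The genes with the pattern most like Arg1 over the 6 libraries were Prep (Pearson r = 0.998) and Tex15 (0.998), and those most like Asl were Klf7 (0.997) and Med24 (0.996), among 12114 genes. These values describe 2 tissues with 3 libraries each, so any gene with a clear difference between the tissues scores high.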

How the data were processed

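RNA from 3 tumor and 3 colon tissue pieces was sequenced by the authors from stranded mRNA libraries. The deposited table gives fragment counts per gene, and FPKM that the authors computed from these counts. The tools cutadapt and HISAT and the build GRCm39 are named in the submitters' processing notes without versions. What counted the reads, and whether strand was used, was not given in the sources used here.

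Counts were scaled by TMM and tested with edgeR 4.0.16 (R 4.3.3; quasi-likelihood test, filterByExpr, tissue as the only term, Benjamini-Hochberg, threshold 0.05). CPM are TMM-scaled. Totals were 16995481 to 20789620 counts, which leaves Ido2 and Tdo2 with intervals that cover counting error only. Balances used log2(FPKM + 0.1) and exact permutation tests. The code was tested on simulated data.

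Alternatives were RLE, upper quartile and pan-epithelial scaling, other filters, leaving out 5 genes above 1% of a library, DESeq2 1.42.0, limma 3.58.1 (voom, and FPKM with pseudocounts 1 and 0.1), the block and leaving out each library. The series text calls tissues paired, and numbers are shared, so equal numbers were taken as pairs in the block and in the differences within a number. The main fit and the permutation tests were unpaired. Same-numbered deviations from the group means correlated at 0.19, 0.12 and 0.02 for numbers 2, 4 and 20. Those of different numbers ran from -0.20 (tumor 4 with colon 2) to 0.125 (tumor 4 with colon 20), the latter just above number 4 itself at 0.122. Tumor 20 correlated with colon 2 (0.0185) as with colon 20 (0.0181). No label says that the 3 numbers are separate animals, and the p-values reflect only how far these libraries differ from each other, which may be technical.

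The members and lists were chosen with earlier results of these data known. Named are all members, called list genes (up to 6 by lowest adjusted p), the 2 most abundant per list by FPKM, and the 2 genes most like each called member among those of at least 5 mean CPM.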

Additional observations from a re-analysis of the deposited data

How the results depend on the processing

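Arg1 kept its call in all 17 alternatives. The count of higher members was 2, against 1 with RLE scaling, with upper quartile scaling and with a minimum of 1 CPM in 3 samples, 3 with pan-epithelial scaling, DESeq2 and both limma fits on FPKM, and 1 to 2 with a library left out (1 without tumor 20 or colon 20). Each fall to 1 lost Asl (adjusted p = 0.0499) and each 3 added Arg2 (0.0505), both at the threshold. Where the count stayed at 2, Asl gave way to Arg2 with no count filter and without tumor 4, to Nos2 with the block and without colon 4, and to Ido1 without tumor 2. The count of lower list genes was 14, and 6 to 15 with a library left out (9 without tumor 2, 8 without tumor 20, 6 without colon 4). Signs turned for uncalled genes. Odc1 was at 0.0898 and 0.0911 in the limma fits on FPKM and ran from -0.143 to 0.0561 with a library left out, positive without tumor 2, tumor 4 or colon 20. Ido1 was at -0.10 with limma-voom, Ass1 at -0.016 without tumor 20 and up to 0.275 with another library left out, and Il4i1 from -0.547 without tumor 4 to 0.284 without colon 4. Ido1 minus Il4i1 ran from -0.39 to 1.75 with a library left out, and was -0.23 without tumor 4. The cause of these turns was not tested. On the FPKM scale limma gave 3860 higher and 2350 lower genes at a pseudocount of 1, and 3911 higher and 2408 lower at 0.1, where edgeR gave 2981 and 2987, with the median of all genes at 0.09 and 0.12. The replicate block gave 2724 higher and 2833 lower genes, added Nos2 (adjusted p = 0.00605) and lost Asl (0.0523), and changed no other member. Depth limits Ido2 and Tdo2, and the colon level of Arg1.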
